A study of Mus musculus with 6 samples.

Results

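The mesenchyme and the epithelium of the dorsal pancreatic bud were compared within Pbx mutant mouse embryos at embryonic day 12.5 (E12.5). Both libraries labelled Pbx mutant at E12.5 were used, 2 of the 6 libraries of the study, and every ratio below is mesenchyme over epithelium unless it is said otherwise. Of 24062 genes in the tables, 11956 reached 5 CPM (counts scaled to a common library total, the standard unit of depth-adjusted counts) in at least 1 of these 2 libraries and are called measured. The 2 control libraries of the same stage, in which 12066 genes were measured, served to show which differences between the fractions were lost, turned round or gained in the mutant pair. The pairs share no library.

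The mutant genotype includes 1 copy of the mTmG reporter, 1 copy of Cre under the control of Nkx2.5 and 1 mutant copy of Pbx2. Not every allele of the genotype is given here. The control genotype is given as mTmG only. mTmG is a reporter that marks membranes with Tomato before Cre has acted and with GFP afterwards, so Cre acts in cells that express Nkx2-5 and in their descendants, not in every cell of the bud. Buds were dissociated, cells were sorted on Tomato and GFP fluorescence, and frozen sorted fractions were pooled before RNA was purified. The labels name each library epithelial or mesenchymal. They do not say which colour stood for which fraction or how GFP cells arose without a Cre allele in the control, so a gate that differed between the genotypes cannot be told apart from the genotype. There was 1 pooled library a group, of an unstated number of embryos, and therefore no replicate check of any difference. Intervals are 95% intervals that cover counting error only. A gene was called higher or lower when its ratio was at least 2-fold and the interval left out 1.

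The dorsal bud is an epithelium of multipotent progenitors wrapped in splanchnic mesenchyme, which secretes growth factors and matrix that the epithelium needs to grow, branch and differentiate. Pbx proteins are homeodomain factors of the TALE class that bind DNA together with Hox and Meis proteins. Nkx2-5 marks a part of the splanchnic mesenchyme that contributes to the spleen and to the mesenchyme beside the dorsal pancreas.

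Short stretches of promoter are shown for the members of the splanchnic and Wnt target lists, and of the ranked genes, whose upstream sequence held the letters TGATTGAT on either strand, a pattern of the kind bound by Pbx and Hox proteins together. Of 100 such genes with a RefSeq window, 2 held it in the 250 bases before the start: Tlx1, which encodes a homeodomain factor needed to form the spleen, and Axin2, a negative feedback target of Wnt signalling. The pattern occurred in 220 of 32851 windows of that length (0.67%), in 37 of 9073 measured genes (0.408%), in 7 of 461 genes higher in mutant mesenchyme (1.52%) and in 5 of 1101 genes lower there (0.454%). The sequences are from RefSeq (GRCm38.p6), 5′ to 3′ on the strand of the gene, with the pattern in capitals. The pattern and the genes were chosen after values were seen, and a match in letters is a description, not a binding site. In Tlx1 (chr19:45150465-45150714, + strand) it lies 44 bases before the start, and in Axin2 (chr11:108920099-108920348, + strand) the other strand holds it, so it reads ATCAATCA, 172 bases before the start.
Tlx1: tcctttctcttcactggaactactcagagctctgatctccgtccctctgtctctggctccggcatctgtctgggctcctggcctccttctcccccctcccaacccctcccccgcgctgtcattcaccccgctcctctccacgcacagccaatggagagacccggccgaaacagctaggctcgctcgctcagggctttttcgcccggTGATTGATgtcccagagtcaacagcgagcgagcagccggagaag
Axin2: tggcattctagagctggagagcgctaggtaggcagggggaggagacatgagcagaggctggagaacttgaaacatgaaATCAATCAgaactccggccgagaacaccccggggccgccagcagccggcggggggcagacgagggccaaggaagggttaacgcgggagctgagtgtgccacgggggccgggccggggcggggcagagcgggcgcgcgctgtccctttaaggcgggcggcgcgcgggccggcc

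The 6 libraries held 14032569 to 20276045 counts on genes, 14921268 of them in mutant epithelium and 15593756 in mutant mesenchyme. The table of the control epithelium at E12.5 carries a name of another form and date than the other 5, so a difference of run cannot be told apart from that library in any result that uses the control pair. By summed level, the general epithelial and the general mesenchymal list lay on the side that each label names. Smooth muscle and pericyte lists did not lean clearly to the mesenchyme, with median log2 ratios of 0.03 and -0.22 in the mutant pair. The 31 general epithelial genes summed to 4491 CPM in mutant epithelium and 183 CPM in mutant mesenchyme. The 29 general mesenchymal genes summed to 12120 CPM in mutant mesenchyme and to 7440 CPM in mutant epithelium, against 13320 and 6445 CPM in the control pair, so these genes were well represented in both libraries labelled epithelial. The list also holds genes that epithelia express as well, such as Fn1. Values of Fn1 and of the fibrillar collagen gene Col1a1 are given below. The part of mesenchymal cells among the sorted epithelial cells in the ratios was not tested.

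Among all measured genes, 648 were higher in mutant mesenchyme (5.42%) and 1541 were lower (12.9%), with a median log2 ratio of 0.03. In the control pair 845 were higher (7.00%) and 1637 lower (13.6%), with the same median of 0.03. The largest differences lay on the epithelial side. At least 10-fold ratios were found for 22 genes higher and 598 genes lower in mutant mesenchyme, and at least 100-fold ratios for 0 and 163. Of the genes at 10 CPM or more in mutant epithelium, 88 had no read in mutant mesenchyme, while 0 genes at that level in mutant mesenchyme were without a read in mutant epithelium. In bulk RNA, fewer cells of a type and less RNA per cell cannot be told apart. Angpt2, at 4.93 CPM in mutant epithelium and 4.95 CPM in mutant mesenchyme, fell just outside the minimum, and Bmp2, at 5.45 and 2.70 CPM, just inside it. A gene that passes the minimum through its higher library is likely to differ, so counts over measured members are read only beside these overall shares.

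Pbx2 stood at 49.7 CPM in mutant epithelium and 56.0 CPM in mutant mesenchyme, a ratio of 1.13 (interval 1.02 to 1.24). In the control libraries Pbx2 was at 54.5 CPM in epithelium and 89.9 CPM in mesenchyme, a ratio of 1.65 (1.52 to 1.78). Neither ratio reached 2-fold. The counts are over the whole gene, and transcripts of a mutant copy would be counted with the others, so Pbx2 checks the label only in part. Its relatives did not reach 2-fold either: Pbx3 was at 73.0 and 112 CPM in the mutant pair and 83.6 and 117 CPM in the control pair, and Pbx4 at 6.18 and 4.37 CPM and at 6.03 and 3.09 CPM. Meis1 and Meis2, which encode partners of Pbx proteins and were added after their values were seen, had mutant ratios of 1.91 (1.84 to 1.97) and 2.33 (2.22 to 2.44), against 1.83 and 1.88 in the control pair.

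Transcription factors of the splanchnic mesenchyme leaned to the mesenchyme in both pairs, with a lower median in the mutant pair. Of 30 listed factors, 27 were measured, 14 were higher in mutant mesenchyme, 2 were lower, and the median log2 ratio was 1.04. In the control pair 18 of 26 were higher, 0 were lower and the median was 1.83. The summed level of the list was 1544 CPM in mutant epithelium and 3367 CPM in mutant mesenchyme, against 992 and 3164 CPM in the control pair. The sums of the epithelial libraries differed more between the genotypes than those of the mesenchymal libraries. Single factors differed in both directions between the mesenchymal libraries, as for Tlx1 and Barx1 below, so the sum hides such changes.

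Nkx2-5, the homeodomain factor whose control elements drive the Cre, was at 3.68 CPM in mutant epithelium and 66.8 CPM in mutant mesenchyme, 18.1-fold higher (13.9 to 24.2). Control levels of Nkx2-5 were 0.612 and 41.2 CPM, 67.4-fold higher (39.1 to 127). Both mesenchymal libraries were far above both epithelial ones. The gene lies on chromosome 17 from 26838664 to 26845009 (mm10).

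Tlx1, whose promoter is shown above, was at 36.7 CPM in mutant epithelium and 237 CPM in mutant mesenchyme, 6.46-fold higher (5.91 to 7.08). The control pair stood at 15.9 and 109 CPM, 6.85-fold higher (6.09 to 7.73). The ratio was thus alike in both pairs, while both levels of Tlx1 were higher in the mutant libraries. Nkx2-3, another spleen and gut mesenchyme homeodomain factor, was at 84.2 CPM in mutant epithelium and 344 CPM in mutant mesenchyme, 4.08-fold higher (3.84 to 4.34), and at 55.0 and 170 CPM in the control pair. Nkx3-2, a factor of the mesenchyme that separates spleen from pancreas, was at 24.8 and 104 CPM, 4.21-fold higher (3.76 to 4.72), against 17.8 and 153 CPM, 8.57-fold higher (7.69 to 9.59), in the control pair. The smaller ratio of Nkx3-2 came with a lower mesenchymal and a higher epithelial level.

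Barx1, a stomach and spleen mesenchyme homeodomain factor, was at 239 CPM in mutant epithelium and 378 CPM in mutant mesenchyme, a ratio of 1.58 (1.52 to 1.65). Control levels of Barx1 were 117 and 615 CPM, 5.27-fold higher (5.04 to 5.51), so that a called difference was no longer called. Hand1, a basic helix-loop-helix factor of lateral mesoderm, was the member that met the rule for a lost difference. Hand1 was at 14.9 and 18.7 CPM in the mutant pair, a ratio of 1.25 (1.05 to 1.5), and at 9.89 and 35.4 CPM in the control pair, 3.58-fold higher (3.05 to 4.22). Twist1, Twist2 and Msx1, factors of undifferentiated mesenchyme, were likewise called in the control pair only, at ratios of 1.79, 1.57 and 1.61 in the mutant pair and 4.72, 3.34 and 2.94 in the control pair.

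Foxf1, a forkhead factor of gut mesenchyme that responds to Hedgehog, changed sides without passing the threshold in either pair. It was at 45.1 CPM in mutant epithelium and 22.6 CPM in mutant mesenchyme, 1.99-fold lower (1.75 to 2.27), and at 17.2 and 29.0 CPM in the control pair, 1.68-fold higher (1.46 to 1.94). Osr1 did so too, at 84.6 and 47.5 CPM in the mutant pair and 65.3 and 79.5 CPM in the control pair. Ebf1 was lower in mutant mesenchyme, at 7.62 CPM in epithelium and 1.86 CPM in mesenchyme (4.09-fold, 2.70 to 6.37), with 6.17 and 5.97 CPM in the control pair. Ebf1 was the one listed factor whose difference was gained. Its relative Ebf2, the other listed factor called lower, was at 7.49 and 1.86 CPM (4.02-fold, 2.65 to 6.26) and under the minimum in the control pair, at 3.91 and 1.34 CPM. Tcf21, Hand2, Tbx2, Tbx3, Prrx1, Prrx2, Osr2 and Meox1 were higher in mesenchyme in both pairs, with ratios in the mutant pair of 2.44, 3.06, 2.24, 2.94, 2.97, 4.61, 4.47 and 4.63.

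**Figure D1:**
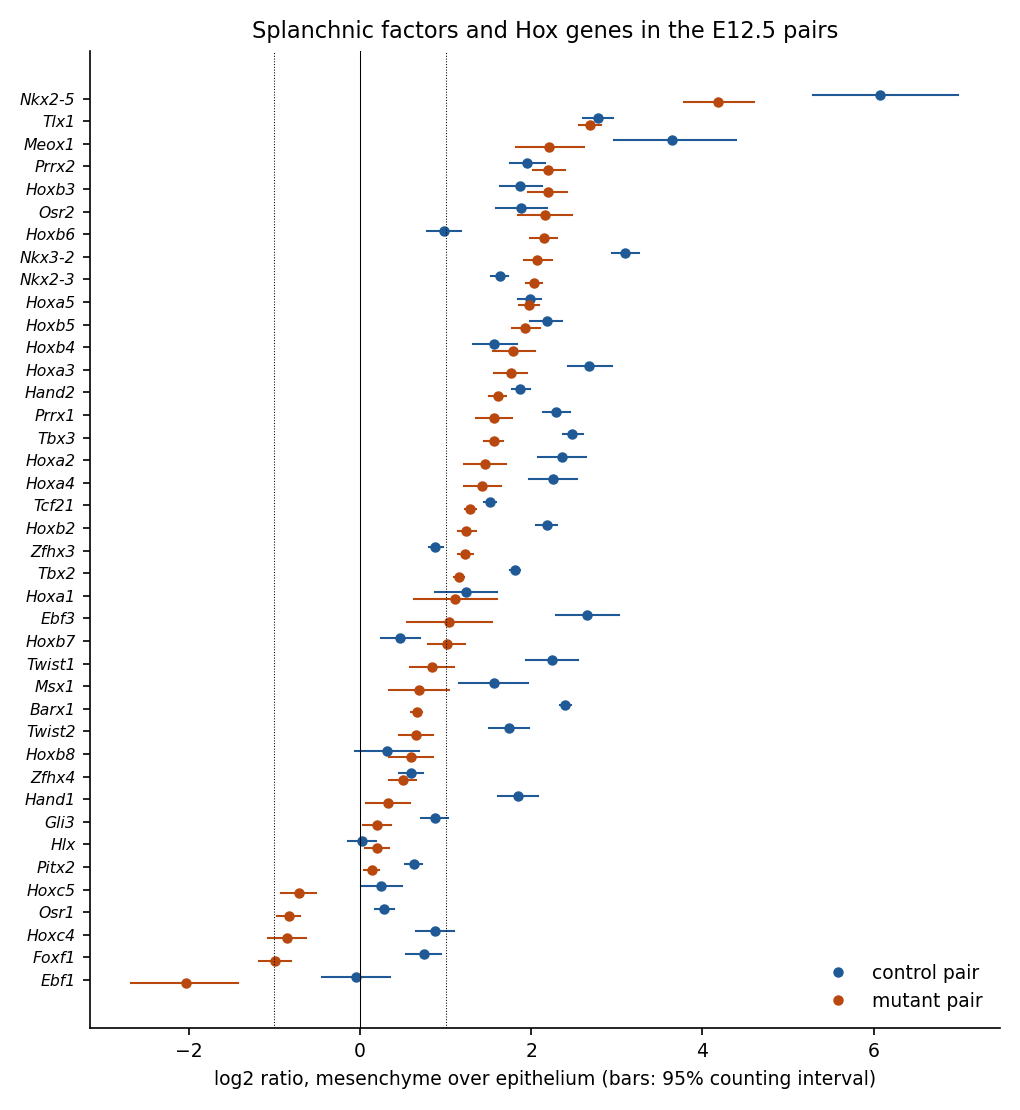
Log2 ratio of mesenchyme over epithelium for each splanchnic factor and Hox gene measured in both E12.5 pairs, with 95% counting intervals as bars and dotted lines at 2-fold. Nkx2-5 stands highest in both pairs, Barx1 and Hand1 lie within the 2-fold lines in the mutant pair and beyond them in the control pair, and Ebf1 is the gene farthest to the left in the mutant pair.

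Hox genes, the partners of Pbx proteins on DNA, kept their mesenchymal bias. Of 39 listed Hox genes 17 were measured, 12 were higher in mutant mesenchyme, 0 were lower, and the median log2 ratio was 1.43. In the control pair 9 of 14 were higher and the median was 1.72. Hoxa5 was at 54.3 CPM in mutant epithelium and 214 CPM in mutant mesenchyme, 3.93-fold higher (3.64 to 4.25), against 3.95-fold (3.61 to 4.32) in the control pair. Hoxb6 was at 28.5 and 126 CPM, 4.42-fold higher (3.99 to 4.92), and in the control pair at 16.8 and 33.1 CPM, a ratio of 1.97 (1.72 to 2.27) just under the threshold. Hoxa6 was the Hox gene whose difference was gained, at 2.89 and 8.36 CPM in the mutant pair. It was under the minimum in the control pair, at 1.79 and 2.41 CPM. Hoxc4 pointed the other way, at 29.2 and 16.1 CPM in the mutant pair and 13.9 and 25.6 CPM in the control pair, with ratios under 2-fold in both.

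Members of the Eya family and their homeodomain partners, which act together as a transcription complex in organ primordia, included the most uneven genes on the mesenchymal side. Eya1 was at 0.986 CPM in mutant epithelium and 25.0 CPM in mutant mesenchyme, 25.4-fold higher (15.2 to 45.8), the largest called ratio among genes at 10 CPM by the nearer bound of its interval. Control levels of Eya1 were 1.70 and 10.8 CPM, 6.37-fold higher (4.41 to 9.41). Six2 was at 4.14 and 43.3 CPM, 10.5-fold higher (8.08 to 13.8), and in the control pair at 0.330 and 10.1 CPM. Six4 lost an epithelial difference. It was lower in control mesenchyme, at 20.8 CPM in epithelium and 3.42 CPM in mesenchyme (6.09-fold, 4.55 to 8.30), and near equal in the mutant pair, at 6.70 and 6.37 CPM. The list of 12 genes includes Eya1, Eya2, Six2, Six4 and Dach1, and also Osr1 and Osr2 of another family. Of these 10 were measured, with 5 higher, 1 lower (Dach1) and a median log2 ratio of 1.33 in the mutant pair, against 5 higher, 2 lower and 1.17 in the control pair.

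The other genes ranked highest in mutant mesenchyme encode proteins of several kinds. Kazald1, a secreted protein related to the insulin-like growth factor binding proteins, was at 26.9 CPM in mutant epithelium and 347 CPM in mutant mesenchyme, 12.9-fold higher (11.7 to 14.3), against 7.82 and 66.9 CPM in the control pair. Slc40a1, the cellular iron exporter ferroportin, was at 147 and 1150 CPM, 7.79-fold higher (7.45 to 8.14), against 133 and 343 CPM. Robo2, a receptor for Slit proteins, was at 4.20 and 60.7 CPM, 14.4-fold higher (11.2 to 18.9), against 4.47 and 21.7 CPM. For these 3 genes the epithelial levels differed by a smaller factor between the genotypes than the mesenchymal ones. Rxfp1, the relaxin receptor, had no read in either control library and stood at 1.31 and 16.7 CPM in the mutant pair, 12.7-fold higher (8.07 to 21.2). Pou3f1, Mylk3, Scube1 and Ramp3 were also in the ranking, as were Frzb and Fgf1 below, at 17.5-, 17.6-, 7.59- and 7.97-fold higher for the first 4.

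General mesenchymal genes, which include fibrillar collagens and receptors of mesenchymal cells, were less uneven in the mutant pair. Of 29 listed genes 26 were measured, 7 were higher and 1 lower in mutant mesenchyme, with a median log2 ratio of 0.67, against 15 higher, 1 lower and a median of 1.08 in the control pair. Cdh11, a cadherin of mesenchymal cells, was at 222 and 876 CPM in the mutant pair, 3.94-fold higher (3.80 to 4.10), and 3.77-fold higher (3.63 to 3.91) in the control pair. Pdgfra, the alpha receptor for platelet-derived growth factor, was at 63.3 and 152 CPM, 2.40-fold higher (2.23 to 2.59), against 2.69-fold. Zeb1, a repressor of epithelial genes, was at 42.2 and 50.3 CPM, a ratio of 1.19 (1.07 to 1.33), and in the control pair at 43.6 and 114 CPM, 2.62-fold higher (2.42 to 2.84). The loss for Zeb1 lay in the mesenchymal library. Its relative Zeb2 remained 2.58-fold higher (2.41 to 2.76), against 3.16-fold. Fn1, fibronectin, was lower in mesenchyme in both pairs, at 91.4 and 30.9 CPM in the mutant pair and 129 and 64.1 CPM in the control pair.

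Genes of the epithelium kept their side, and the depletion from mutant mesenchyme was as deep as from control mesenchyme. All 30 measured general epithelial genes of 31 listed were lower in mesenchyme in both pairs, with a median log2 ratio of -6.68 in each. Cdh1, E-cadherin, was at 353 CPM in mutant epithelium and 0.0643 CPM, 1 read, in mutant mesenchyme, a ratio of 5490 with an interval of 984 to 217000. Control levels of Cdh1 were 514 and 0.738 CPM, 697-fold lower in mesenchyme (389 to 1400). Epcam, an adhesion protein of epithelia, was at 462 and 3.79 CPM, 122-fold lower (94.3 to 160), against 115-fold (90.2 to 149) in the control pair. Cldn4, a claudin of tight junctions, was at 70.8 CPM in mutant epithelium with no read in mutant mesenchyme, at least 367-fold lower by a floor of 3 counts. Among the genes ranked lowest in mutant mesenchyme, Cldn6, another claudin, was at 396 CPM and 0.0643 CPM, 1 read, a ratio of 6150 (1100 to 243000), and Ambp, a plasma protein precursor, at 684 and 0.386 CPM, 1770-fold lower (814 to 4830). Habp2, Kif12, Kirrel2 and Rhov had no read in mutant mesenchyme and were at least 1230-, 730-, 502- and 419-fold lower. Aplnr, the apelin receptor, was at 87.2 CPM in mutant epithelium with no read in mutant mesenchyme. Vtn, Serpina6 and Cldn3 were 1880-, 752- and 2240-fold lower.

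Transcription factors of pancreatic progenitors behaved alike. Of 23 listed 20 were measured and 17 were lower in mutant mesenchyme, with a median log2 ratio of -6.64, against 17 of 20 and -6.77 in the control pair. Pdx1, required to form the pancreas, was at 72.9 CPM in mutant epithelium and 0.0643 CPM, 1 read, in mutant mesenchyme, a ratio of 1130 (203 to 44800). Ptf1a, a factor of pancreatic and later acinar identity, was at 45.3 CPM with no read in mutant mesenchyme, at least 235-fold lower. Hes1, Tead2 and Rbpj were near equal between the mutant fractions, at ratios of 1.52, 1.16 and 1.33. Sox9, a factor of progenitor maintenance that mesenchyme can also express, was less uneven in the mutant. It was at 493 and 66.6 CPM in the mutant pair, 7.4-fold lower in mesenchyme (6.93 to 7.90), and at 656 and 16.1 CPM in the control pair, 40.7-fold lower (35.9 to 46.5).

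Endocrine, acinar and ductal genes were depleted from mutant mesenchyme as well. Among endocrine factors 12 of 16 measured of 25 listed were lower, 1 was higher (Runx1t1, 2.36-fold), and the median log2 ratio was -5.41, against -5.65 in the control pair. Neurog3, which starts endocrine differentiation, was at 45.5 CPM in mutant epithelium and 0.257 CPM in mutant mesenchyme, 177-fold lower (68.8 to 651). Isl1, an islet factor that dorsal mesenchyme also expresses, stood at 101 and 152 CPM in the mutant pair and 81.5 and 146 CPM in the control pair. All 21 measured hormone and granule genes of 30 listed were lower, with a median of -5.34, led by Gcg, proglucagon. Pyy, peptide YY, was at 128 CPM in mutant epithelium with no read in mutant mesenchyme, at least 664-fold lower, and at least 646-fold lower in the control pair. All 12 measured acinar genes of 30 listed were lower, with a median of -7.10, as in Cpa1, a digestive carboxypeptidase, at 698 and 5.79 CPM (121-fold, 98.0 to 150). Of 15 measured ductal and trunk genes of 20 listed 11 were lower, with a median of -3.08 against -4.56 in the control pair. Slc4a4, a bicarbonate transporter of ducts, was called in the control pair only, 5.62-fold lower in mesenchyme there and at 7.88 and 4.24 CPM, 1.86-fold lower, in the mutant pair.

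**Figure D2:**
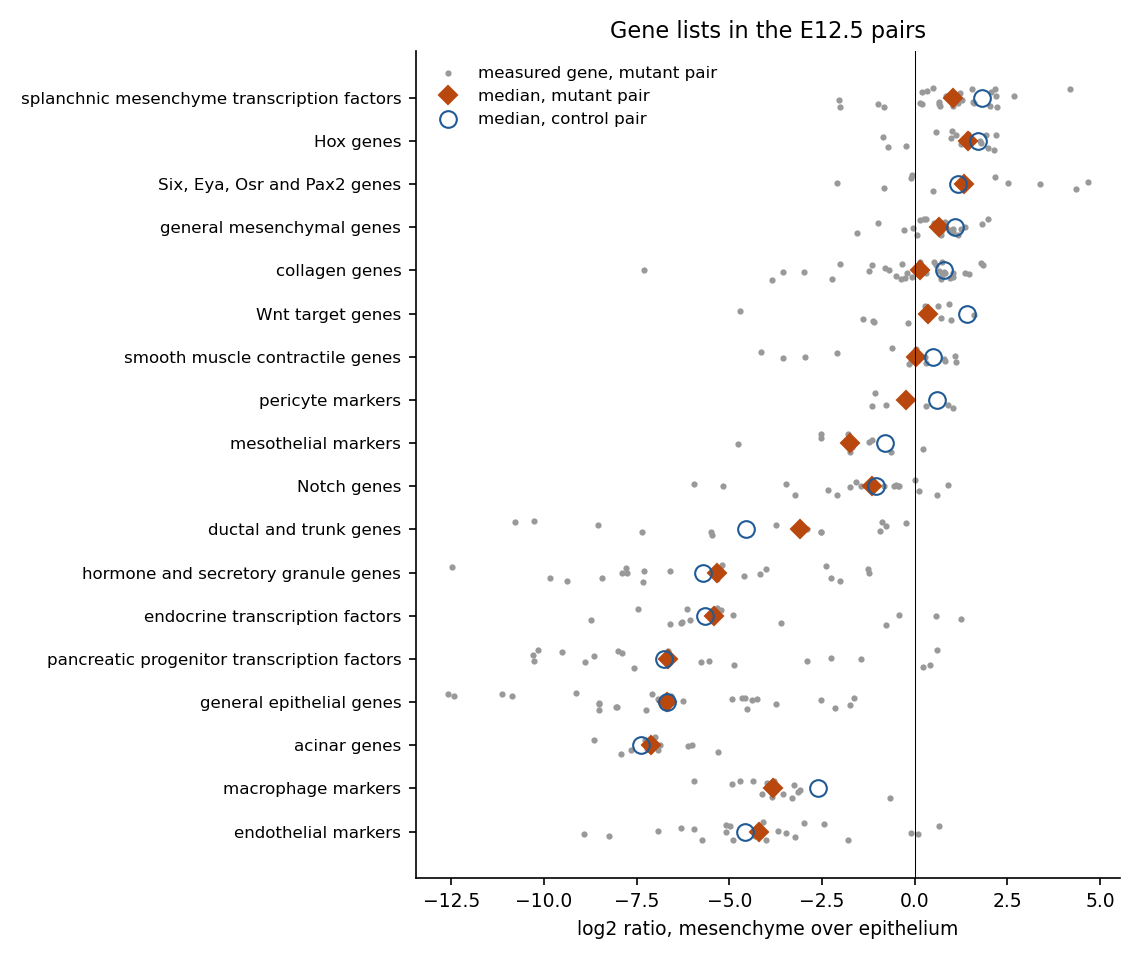
Log2 ratio of mesenchyme over epithelium in the mutant pair for every measured member of 18 gene lists (grey points, spread vertically only to separate them), with the list median in the mutant pair (filled diamond) and in the control pair (open circle); members with no read in a library are at the bound set by 3 counts. Epithelial, endocrine and acinar lists lie far to the left with like medians in both pairs. Diamonds lie left of their circles for the splanchnic, Hox, general mesenchymal, collagen, Wnt target, smooth muscle, pericyte, mesothelial, Notch and macrophage lists. The ductal list is among those with the diamond on the right.

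Fewer collagen genes were called higher in mutant mesenchyme than in control mesenchyme. Of 44 collagen genes 33 were measured, 6 were higher in mutant mesenchyme and 8 lower, with a median log2 ratio of 0.15. Among control libraries 16 of 34 were higher and 8 lower, with a median of 0.79. Col1a1, the main fibrillar collagen chain, was at 1440 CPM in mutant epithelium and 2290 CPM in mutant mesenchyme, a ratio of 1.59 (1.57 to 1.62), against 1140 and 2930 CPM and 2.57-fold (2.53 to 2.61) in the control pair. Its partner chain Col1a2 did not follow, at 2.04-fold (2.0 to 2.09) in the mutant pair and 2.03-fold in the control pair. Col6a1, a microfibrillar collagen, lost its difference, at 81.5 and 90.3 CPM in the mutant pair and 70.9 and 165 CPM in the control pair. Col2a1, Col9a1 and Col9a3, cartilage-type collagens, were lower in mesenchyme in both pairs. Col2a1 was 4.69-fold lower (4.24 to 5.2) in the mutant pair and 18.8-fold lower (16.3 to 21.8) in the control pair, with 29.7 CPM in mutant and 13.0 CPM in control mesenchyme.

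Smoc2, a calcium-binding matricellular protein, was among the abundant matrix genes whose difference was lost. It stood at 256 CPM in mutant epithelium and 221 CPM in mutant mesenchyme, 1.16-fold lower (1.11 to 1.21), and at 206 and 652 CPM in the control pair, 3.16-fold higher (3.05 to 3.27). Postn, periostin, went the other way and gained a difference, at 43.7 and 155 CPM in the mutant pair, 3.56-fold higher (3.26 to 3.88), against 33.1 and 48.2 CPM. Thbs2, a thrombospondin, and Cthrc1, a secreted collagen-related protein, gained one too, at 2.79-fold (2.33 to 3.36) and 2.59-fold (2.38 to 2.82) higher. Cthrc1 was at 47.8 and 124 CPM in the mutant libraries and at 15.9 and 19.9 CPM in the control libraries, so both mutant fractions were above both control fractions. Of 45 proteoglycans and matrix glycoproteins 37 were measured, 5 were higher and 11 lower in mutant mesenchyme, with a median of -0.04.

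Among basement membrane and integrin genes, more were called lower than higher in mutant mesenchyme, but 13 were not called. Of 32 listed genes 26 were measured, 3 were higher and 10 lower in mutant mesenchyme, with a median of -0.56 against -0.78 in the control pair. The list summed to 2218 CPM in mutant epithelium and 2381 CPM in mutant mesenchyme, so the sum did not lean to the epithelium. Itga8, an integrin of mesenchymal cells, was at 35.0 and 179 CPM, 5.10-fold higher (4.65 to 5.61). Lama2 and Itgb8, both lower in control mesenchyme, were near equal in the mutant pair, at 5.12 and 6.95 CPM and at 2.43 and 2.32 CPM.

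In the Wnt pathway, 3 of the 8 targets and 1 of the 4 antagonists that were higher in control mesenchyme lost that difference, by the rule given below, beside 24.0% of all genes higher there. The ligand Wnt5a kept its mesenchymal difference, and the ligand Wnt7b kept an epithelial one. Among ligands and R-spondins, 8 of 23 were measured, 3 were higher and 4 lower in mutant mesenchyme. Wnt5a, a ligand of mainly beta-catenin-independent signalling, was at 81.1 and 207 CPM, 2.55-fold higher (2.39 to 2.73), and 3.44-fold higher in the control pair. Wnt7b, an epithelial ligand, was at 93.8 and 0.129 CPM, 729-fold lower (201 to 6030). R-spondins amplify Wnt signals, and those measured parted. Rspo3 gained a mesenchymal difference, at 8.54 and 33.9 CPM in the mutant pair (3.97-fold, 3.27 to 4.85) and 8.52 and 9.59 CPM in the control pair. Rspo1, which mesothelium also expresses, was at 21.0 and 0.772 CPM in the mutant pair, 27.2-fold lower (15.4 to 53.3), and at 10.2 and 5.57 CPM in the control pair, 1.84-fold lower (1.42 to 2.39).

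Of 14 Wnt antagonists 8 were measured, 4 were higher and 1 was lower in mutant mesenchyme. Sfrp1, a secreted protein that binds Wnt ligands, lost its difference. It was at 635 CPM in mutant epithelium and 687 CPM in mutant mesenchyme, a ratio of 1.08 (1.05 to 1.11), and at 416 and 1490 CPM in the control pair, 3.58-fold higher (3.50 to 3.67). The gene lies on chromosome 8 from 23411502 to 23449632 (mm10). Its relative Frzb was among the most uneven genes, at 1.38 and 24.4 CPM in the mutant pair, 17.7-fold higher (11.4 to 28.9), and at 0.848 and 7.38 CPM in the control pair. Dkk2, a ligand of Wnt co-receptors, was 4.71-fold higher (3.99 to 5.58) in the mutant pair and 2.32-fold higher (2.0 to 2.69) in the control pair. Wif1, which also binds Wnt ligands, was at 3.55 and 8.17 CPM in the mutant pair and 2.17 and 1.81 CPM in the control pair.

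All 12 measured Wnt target genes of 14 listed are accounted for as 1 higher, 4 lower and 7 not called in the mutant pair, with a median log2 ratio of 0.37. The control pair had 8 higher, 2 lower and a median of 1.40. Axin2 was at 18.3 CPM in mutant epithelium and 16.0 CPM in mutant mesenchyme, 1.14-fold lower (0.958 to 1.36), and at 11 and 23.3 CPM in the control pair, 2.11-fold higher (1.78 to 2.5). Notum, a secreted enzyme that inactivates Wnt ligands, was at 18.8 and 22.8 CPM in the mutant pair, a ratio of 1.21 (1.03 to 1.42), and at 9.0 and 44.0 CPM in the control pair, 4.89-fold higher (4.16 to 5.78). Nkd1, an inhibitor inside the cell, was at 67.3 and 92.2 CPM, a ratio of 1.37 (1.26 to 1.49), against 34.0 and 115 CPM, 3.38-fold higher (3.09 to 3.69). For Axin2, Notum and Nkd1 the mutant mesenchyme was below the control mesenchyme and the mutant epithelium above the control epithelium. Lef1, a nuclear effector of the pathway and the only target still called higher, was at 26.5 and 80.8 CPM, 3.05-fold higher (2.72 to 3.42), against 6.30-fold (5.57 to 7.16). Tcf7, Nkd2, Apcdd1 and Prickle1 were called in the control pair only, with ratios of 1.56, 1.90, 1.99 and 1.62 in the mutant pair.

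**Figure D3:**
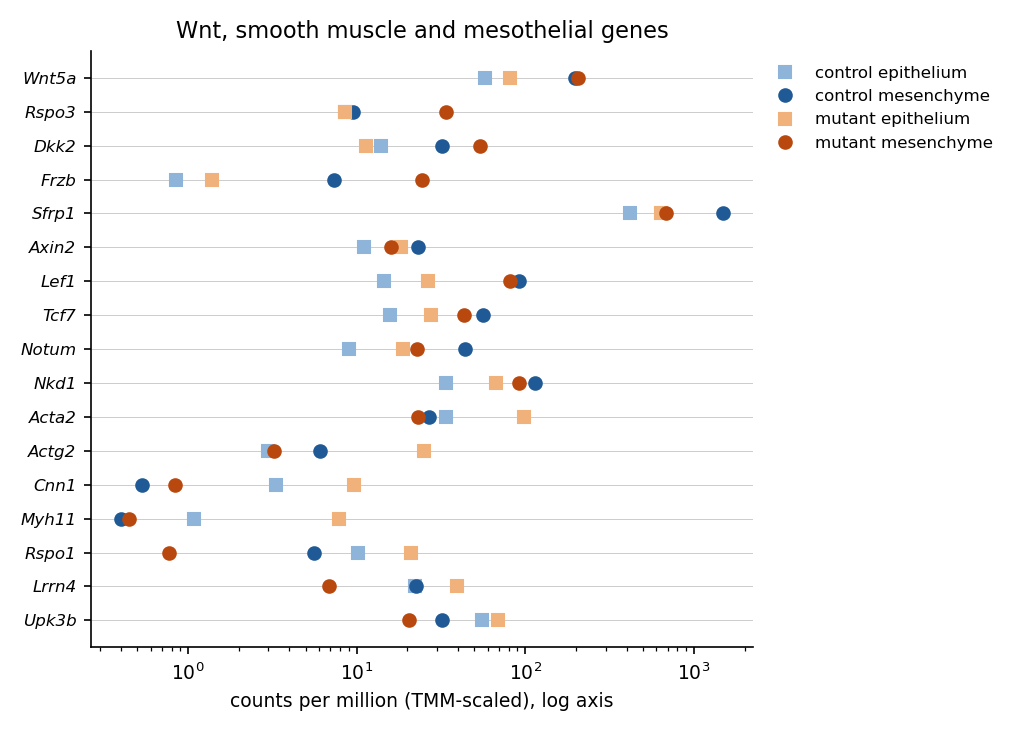
TMM-scaled CPM on a log axis in the 4 E12.5 libraries for Wnt pathway genes (Wnt5a to Nkd1), smooth muscle genes (Acta2 to Myh11) and genes of the mesothelial list (Rspo1 to Upk3b); squares are epithelium, circles mesenchyme, blue control and orange mutant. For Sfrp1, Axin2 and Notum the orange square and circle are close together between the blue ones, and for Acta2, Actg2, Cnn1 and Myh11 the mutant epithelium is the highest of the 4.

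Among fibroblast growth factors, which pass signals in both directions between mesenchyme and epithelium, 13 of 25 ligand and receptor genes were measured, with 2 higher and 3 lower in mutant mesenchyme. Fgf10, the mesenchymal ligand that sustains epithelial progenitors, was at 5.45 and 15.6 CPM, 2.85-fold higher (2.22 to 3.71), against 8.01 and 18.4 CPM and 2.30-fold in the control pair. Fgf1 was at 2.89 and 43.6 CPM, 15.1-fold higher (11.1 to 21.0), against 6.26 and 21.6 CPM and 3.45-fold. Fgf9, a ligand that mesothelium and epithelium can make for mesenchyme, gained a difference, at 48.0 and 10.2 CPM (4.70-fold lower, 3.95 to 5.61), against 30.1 and 21.2 CPM. Fgfr4 was 37.3-fold lower in mutant mesenchyme. Of 10 genes that respond to these ligands, 1 was higher (Il17rd, 2.0-fold) and 0 were lower.

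The Hedgehog co-receptors Boc and Cdon both had a lower ratio in the mutant pair than in the control pair. Boc and Cdon are related membrane proteins that help Hedgehog bind its receptor. Boc was at 55.5 and 78.9 CPM in the mutant pair, a ratio of 1.42 (1.30 to 1.56), and at 34.4 and 110 CPM in the control pair, 3.20-fold higher (2.93 to 3.50). Cdon was at 29.2 and 9.65 CPM in the mutant pair, 3.02-fold lower in mesenchyme (2.51 to 3.66), and at 16.8 and 28.3 CPM in the control pair, 1.68-fold higher (1.46 to 1.94). Hhip, an inhibitor induced by the pathway, was at 16.8 CPM in mutant epithelium with no read in mutant mesenchyme, at least 86.8-fold lower, and at 13.8 and 1.54 CPM in the control pair. Ptch1, the receptor and a target, was near equal, at 7.82 and 7.14 CPM. Of the 11 genes of this list 7 were measured, 0 were higher and 2 lower in mutant mesenchyme.

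Genes of retinoic acid supply and breakdown were spread over both fractions, with 4 higher and 4 lower in mutant mesenchyme among 15 measured of 19 listed. Aldh1a2, the main enzyme of retinoic acid synthesis in the embryo, was at 36.4 and 15.6 CPM in the mutant pair, 2.33-fold lower in mesenchyme (2.0 to 2.72), and at 31.2 and 40.0 CPM in the control pair, with a ratio of 1.28 (1.15 to 1.44) the other way. Crabp2, a retinoic acid carrier, lost a difference, at 24.0 and 35.0 CPM against 10.1 and 48.8 CPM. Rdh10, which makes the substrate of Aldh1a2, was 3.50-fold higher (3.26 to 3.77) in mutant mesenchyme and 4.12-fold higher in the control pair. Cyp26b1, which breaks retinoic acid down, was 2.44-fold higher (1.93 to 3.12), against 6.99-fold (5.43 to 9.10).

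Insulin-like growth factor genes included Igf1, a growth factor from mesenchyme, at 145 and 191 CPM in the mutant pair, a ratio of 1.32 (1.25 to 1.39), and at 126 and 328 CPM in the control pair, 2.60-fold higher (2.48 to 2.73). Igfbp3, a binding protein, was 3.51-fold higher (3.38 to 3.64) in the mutant pair and 3.82-fold higher in the control pair. Of 17 genes on that list 13 were measured, 2 were higher and 3 lower. Bone morphogenetic and transforming growth factor ligands had 2 of 12 measured genes higher and 4 lower. Bmp5 was 4.32-fold higher (3.17 to 5.97) and Bmp7 3.65-fold lower (3.34 to 4.00) in mutant mesenchyme, the same sides as in the control pair. Nog, noggin, an antagonist of these ligands, was at 8.94 and 2.64 CPM in the mutant pair, 3.39-fold lower (2.37 to 4.93), and at 2.78 and 4.63 CPM in the control pair. Notch genes lay on the epithelial side in both pairs, with 9 of 18 measured lower in each and medians of -1.14 and -1.04. Dll1, a Notch ligand of endocrine precursors, was 5.01-fold lower (4.03 to 6.30) in mutant mesenchyme and 36.7-fold lower (24.3 to 58.1) in control mesenchyme. Kitl and Hgf, ligands for Kit and Met, were 4.09-fold (3.58 to 4.68) and 4.88-fold (3.90 to 6.18) higher in mutant mesenchyme, against 1.82-fold and 3.14-fold.

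Guidance genes steer axons and vessels and sort cells at borders. Of the 4 cues and 6 receptors higher in control mesenchyme, 1 and 2 lost that difference, beside 24.0% of all genes higher there. Slit1, a repulsive ligand of Robo receptors, was at 5.78 CPM in mutant epithelium and 2.89 CPM in mutant mesenchyme, a ratio just under 2-fold lower (1.38 to 2.93), and at 3.49 and 20.1 CPM in the control pair, 5.77-fold higher (4.46 to 7.55). Epha3, an ephrin receptor, was at 55.5 and 27.8 CPM, again just under 2-fold lower (1.78 to 2.25), and at 68.0 and 148 CPM in the control pair, 2.17-fold higher (2.03 to 2.33). Unc5a, a netrin receptor, lost a difference with a higher epithelial level, at 14.7 and 16.8 CPM against 4.47 and 17.5 CPM. Sema3d and Sema4a, semaphorins, gained one, at 5.52 and 1.03 CPM and at 15.4 and 1.41 CPM, 5.36-fold (3.12 to 9.81) and 10.9-fold (7.04 to 17.8) lower in mutant mesenchyme. Among cues 1 of 22 measured was higher and 6 lower, and among receptors 5 of 25 were higher and 1 lower.

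Across all genes, 1451 were called the same way in both pairs, 294 of them higher and 1157 lower in mesenchyme, and 19 were called in opposite ways. A difference was lost when it was called in the control pair, was not called in the mutant pair and there was under 1.5-fold or of the other sign, and when the 2 log2 ratios differed by at least 1 with an interval that left out 0. A gained difference is the mirror image. By this rule 203 of the 845 genes higher in control mesenchyme were lost (24.0%), and 115 of the 1637 genes lower there (7.03%). Gained were 117 of the 648 genes higher in mutant mesenchyme (18.1%) and 122 of the 1541 genes lower there (7.92%). Of these lost genes, 50 of the 203 and 27 of the 115 did not reach 5 CPM in either mutant library. Likewise 33 of the 117 and 17 of the 122 gained genes did not reach it in either control library. These shares have no replicate error, and genes of large ratio can move far without leaving their class.

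Counting error covered part of the spread between the pairs. For the 2577 genes at a mean of 100 CPM or more over the 4 libraries, the SD of the log2 ratio difference was 0.36. The SD that counting alone would give was 0.09. For the 1153 genes at 5 to 10 CPM these SDs were 1.34 and 0.72. The spread was thus wider among low genes. At least 10 CPM in 1 of the 4 libraries was reached by 145 of the 203 and 72 of the 115 lost genes. Of the gained genes, 73 of 117 and 83 of 122 reached it, and of the turned genes 5 of 5 and 9 of 14. The spread beyond counting includes whatever distinguished the pools.

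Either library could move. Of the 203 lost genes that were higher in control mesenchyme, 196 were lower in mutant than in control mesenchyme and 184 were higher in mutant than in control epithelium. The mesenchymal change was the larger for 119 and the epithelial for 84, with median log2 changes of -0.95 and 0.69. Of the 115 lost genes that were lower in control mesenchyme, 109 were higher in mutant mesenchyme and 110 were lower in mutant epithelium. The 122 gained genes lower in mutant mesenchyme leaned on the mesenchymal library, with the larger change there for 88. The control epithelium enters each of these counts.

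**Figure D4:**
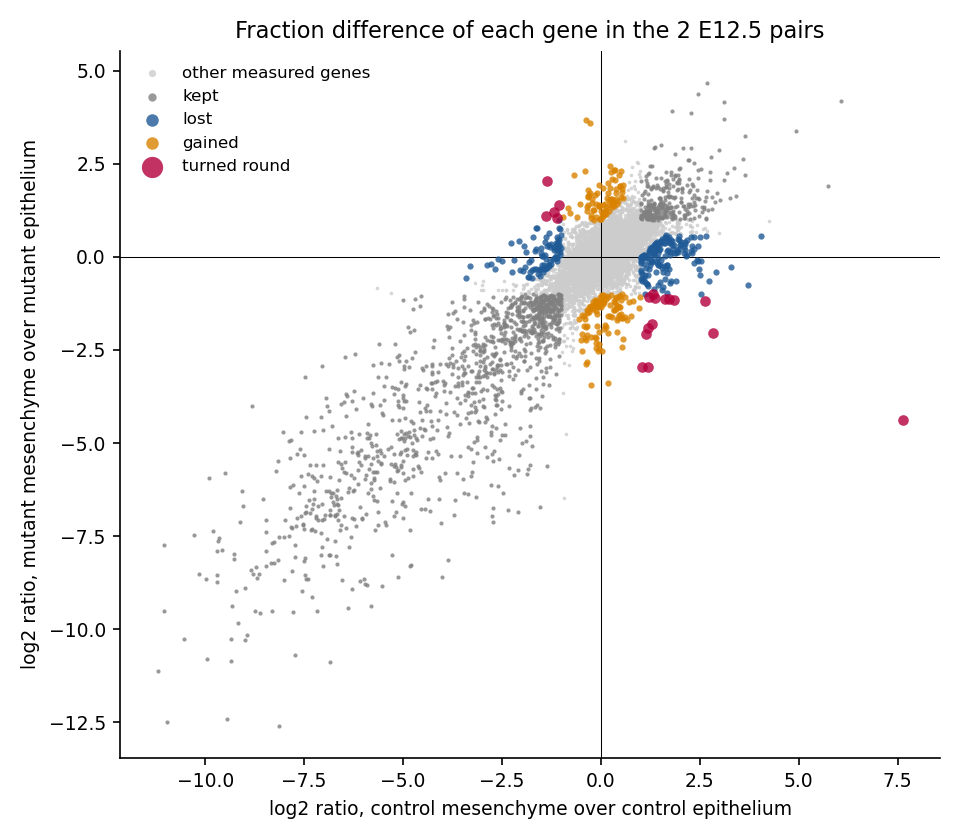
Log2 ratio of mesenchyme over epithelium of each gene measured in both pairs, with the control pair on the horizontal and the mutant pair on the vertical axis; colours mark kept, lost, gained and turned round differences. Most called genes lie in the lower left, and the 19 genes turned round lie at the upper left and lower right, with Hbb-y farthest to the lower right.

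Genes ranked first for a lost mesenchymal difference were of many kinds. Alx4, a homeodomain factor of mesenchyme, was at 5.65 CPM in mutant epithelium and 3.34 CPM in mutant mesenchyme, 1.69-fold lower (1.18 to 2.43), and at 0.895 and 11.7 CPM in the control pair, 13.0-fold higher (8.10 to 22.2). Opcml, a membrane adhesion protein, was at 11.8 and 8.87 CPM against 4.57 and 34.7 CPM. Cacna1c, a subunit of a voltage-gated calcium channel, was at 8.74 and 5.59 CPM against 1.60 and 10.7 CPM. Htra3, a secreted protease, was at 65.6 and 41.5 CPM, 1.58-fold lower (1.43 to 1.75), against 36.6 and 125 CPM, 3.41-fold higher (3.13 to 3.71). Lgi2, a secreted protein, was at 82.3 and 45.0 CPM against 72.4 and 182 CPM. Ctsk, cathepsin K, was at 6.18 and 4.44 CPM against 2.64 and 14.9 CPM.

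Genes ranked first for a lost epithelial difference lay under 2-fold between the mutant fractions, some of them on the mesenchymal side. Irf8, a factor of myeloid cells, was at 11.6 and 10.2 CPM in the mutant pair and at 14.3 and 2.08 CPM in the control pair, 6.89-fold lower in mesenchyme (4.75 to 10.3). The summed macrophage markers lay on the epithelial side in the mutant pair, at 374 and 47.6 CPM. Cadm1, an adhesion molecule, was at 101 and 78.5 CPM, 1.28-fold lower (1.19 to 1.38), against 103 and 24.9 CPM, 4.12-fold lower (3.69 to 4.61). Ctsc, a lysosomal protease, was at 80.0 and 61.6 CPM against 116 and 29.6 CPM. Elavl2, an RNA-binding protein of neurons and germ cells, was at 13.5 and 23.0 CPM against 16.7 and 5.43 CPM. For Cadm1 the epithelial levels were alike, and the mesenchymal level was the one that differed between the genotypes.

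Gained mesenchymal differences included Asb4, an adaptor of ubiquitin ligases, at 74.0 CPM in mutant epithelium and 269 CPM in mutant mesenchyme, 3.63-fold higher (3.40 to 3.88), against 64.8 and 75.3 CPM in the control pair. Limch1, an actin-associated protein, was at 23.5 and 58.5 CPM, 2.49-fold higher (2.2 to 2.82), against 22 and 12.3 CPM. Negr1, an adhesion molecule, was at 4.14 and 16.0 CPM, 3.87-fold higher (2.92 to 5.19), against 3.01 and 1.07 CPM. The zinc finger genes Zfp40, Zfp820 and Zfp11 and the receptor Bmpr2 entered by a lower epithelial level instead, for Zfp40 at 5.39 and 26.1 CPM against 22.8 and 27.3 CPM.

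Gained epithelial differences were led by Diras2, a small GTPase, at 6.77 and 0.643 CPM in the mutant pair, 10.5-fold lower (5.50 to 22.6), and 11.2 and 12.7 CPM in the control pair. Slco3a1, an organic anion transporter, was at 47.2 and 11.6 CPM, 4.08-fold lower (3.46 to 4.83), against 57.5 and 76.1 CPM. Klf5, a factor of epithelia and smooth muscle, and Cldn1, a claudin, were also higher in mutant than in control epithelium, at 32.9 and 7.20 CPM and at 15 and 2.70 CPM in the mutant pair, against 12.6 and 11.6 CPM and 5.28 and 5.10 CPM. Lpl, lipoprotein lipase, was at 33.4 and 11.3 CPM against 22.2 and 30.5 CPM.

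Turned round to the mesenchyme were 5 genes, each with its larger change in the mesenchymal library. Nrp2, a co-receptor for semaphorins and vascular endothelial growth factors, was at 39.5 CPM in mutant epithelium and 102 CPM in mutant mesenchyme, 2.59-fold higher (2.36 to 2.85), and at 47.9 and 22.8 CPM in the control pair, 2.10-fold lower (1.86 to 2.38). Elavl4, an RNA-binding protein of neurons, was at 7.69 and 31.6 CPM, 4.11-fold higher (3.35 to 5.07), against 11.2 and 4.36 CPM, 2.56-fold lower (1.94 to 3.42). Pcdh1, a protocadherin, was at 13.4 and 28.8 CPM against 25.3 and 9.66 CPM. Bche, butyrylcholinesterase, was at 9.46 and 19.3 CPM against 12 and 5.57 CPM. Serpinb6b, a serine protease inhibitor, was at 5.72 and 13.2 CPM against 5.18 and 2.28 CPM. Nrp2 lies on chromosome 1 from 62703285 to 62818695 (mm10).

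Turned round to the epithelium were 14 genes, all lower in mutant than in control mesenchyme and all higher in mutant than in control epithelium, 9 of them at least 2-fold in both. Actg2, the smooth muscle gamma actin of the gut, was at 25.0 CPM in mutant epithelium and 3.22 CPM in mutant mesenchyme, 7.76-fold lower (5.77 to 10.6), and at 2.97 and 6.10 CPM in the control pair, 2.06-fold higher (1.48 to 2.88). Penk, proenkephalin, was at 22.1 and 6.30 CPM, 3.50-fold lower (2.79 to 4.43), against 6.92 and 17.0 CPM, 2.46-fold higher (2.0 to 3.04). Adrb3, the beta-3 adrenergic receptor, was at 19.8 and 9.07 CPM against 13.7 and 45.5 CPM. Zcchc5, a zinc finger protein, was at 7.69 and 1.86 CPM against 2.73 and 19.4 CPM. Nrg2, a neuregulin that signals through ErbB receptors, was at 8.80 and 4.05 CPM against 4.80 and 14.6 CPM. The other 9 were Hbb-y, Fam124a, Slc13a4, Hpcal4, Slc27a6, Zfp791, Shank1, Mrgpre and Pdzrn4. Excepting Hbb-y, Penk, Adrb3, Zcchc5 and Actg2, no gene of the 14 reached 15 CPM in any of the 4 libraries.

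**Figure D5:**
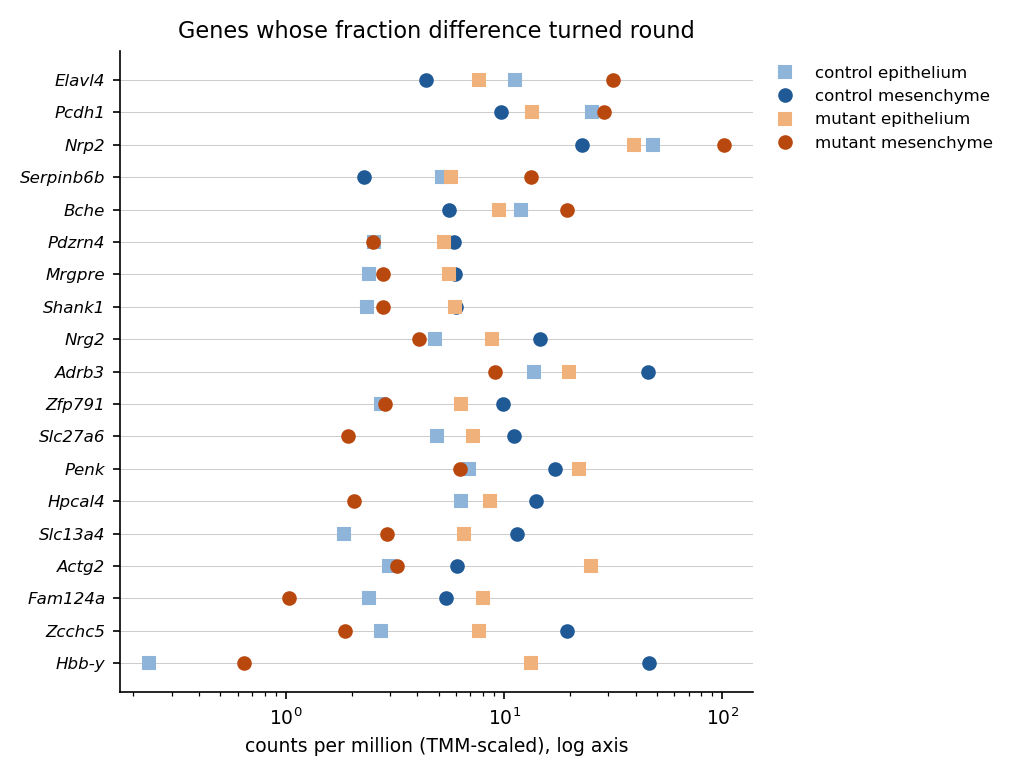
TMM-scaled CPM on a log axis in the 4 E12.5 libraries for the 19 genes called in opposite ways in the mutant and control pairs; squares are epithelium, circles mesenchyme, blue control and orange mutant. The upper 5 genes have the mutant mesenchyme as their highest value, and in the lower 14 the mutant epithelium lies above the mutant mesenchyme while the control mesenchyme lies above the control epithelium.

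Hbb-y, an embryonic haemoglobin chain of primitive red cells, had the largest turn. It was at 13.3 CPM in mutant epithelium and 0.643 CPM in mutant mesenchyme, 20.6-fold lower (11 to 43.7), and at 0.235 and 46.2 CPM in the control pair, 196-fold higher (83.7 to 606). Of 15 listed erythroid genes 13 were present in the data, and only Hbb-y was measured in the mutant pair. The 13 summed to 3.77 CPM in control epithelium, 66.3 in control mesenchyme, 19 in mutant epithelium and 2.70 in mutant mesenchyme. Hbb-y made up most of the sum in control mesenchyme and in mutant epithelium. Hba-x and Hbb-bh1, other embryonic chains, were lost differences, with no read in mutant mesenchyme and 3.15 and 0.263 CPM in mutant epithelium. The adult chains Hba-a1, Hba-a2, Hbb-bs and Hbb-bt had no read in any of the 4 libraries. Haemoglobin genes resemble each other, so reads could be split or dropped among them, and the part of red cell RNA in other turned genes was not tested.

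Several smooth muscle genes had their highest level in the mutant library labelled epithelial. Of 18 listed 15 were measured, 2 were higher and 4 lower in mutant mesenchyme, with a median log2 ratio of 0.03, against 4 of 13 higher, 0 lower and a median of 0.50 in the control pair. Acta2, smooth muscle alpha actin, was at 97.8 CPM in mutant epithelium and 23.0 CPM in mutant mesenchyme, 4.26-fold lower (3.79 to 4.80), and at 34.1 and 26.8 CPM in the control pair. Cnn1, calponin, was at 9.72 and 0.836 CPM, 11.6-fold lower (6.60 to 22.4), against 3.34 and 0.537 CPM. Myh11, smooth muscle myosin, was at 7.88 and 0.450 CPM, 17.5-fold lower (8.24 to 44.5), against 1.08 and 0.402 CPM. Other contractile genes did not join them: Cald1 was 2.12-fold higher (2.03 to 2.21) in mutant mesenchyme, and Tagln and Myl9 were near equal at 27 and 24.3 CPM and at 101 and 93.7 CPM. Des, desmin, was at 115 and 205 CPM, a ratio of 1.78 (1.68 to 1.89), against 3.90-fold (3.66 to 4.16) in the control pair.

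Pericyte markers, of cells that sheathe small vessels, shifted to lower ratios. Of 9 listed 7 were measured, with 1 higher, 2 lower and a median of -0.22 in the mutant pair, against 2 higher, 0 lower and 0.61 in the control pair. Rgs5 was at 22.5 and 27.8 CPM in the mutant pair, a ratio of 1.24 (1.07 to 1.43), and at 19.9 and 79.9 CPM in the control pair, 4.01-fold higher (3.59 to 4.49). Kcnj8, a potassium channel of pericytes, was at 135 and 60.8 CPM, 2.22-fold lower (2.05 to 2.40), against 108 and 154 CPM. Cspg4 was at 23.8 and 11.3 CPM against 16.9 and 25.9 CPM. The list summed to 435 and 486 CPM in the mutant pair and 422 and 807 CPM in the control pair.

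Mesothelial markers, of the outer lining of the bud, were lower in mutant mesenchyme. Of 14 listed 11 were measured and 9 were lower, with 0 higher and a median of -1.75, against 3 of 11 lower and -0.80 in the control pair. Their sum was 570 CPM in mutant epithelium and 203 CPM in mutant mesenchyme, against 475 and 305 CPM in the control pair. Upk3b, a uroplakin, was at 69.1 and 20.6 CPM, 3.36-fold lower (2.96 to 3.81), against 55.2 and 31.9 CPM. Lrrn4 was at 39.5 and 6.82 CPM, 5.79-fold lower (4.70 to 7.19), against 22.1 and 22.6 CPM. Wt1, a factor of mesothelium and its progeny, was at 76.8 and 49.1 CPM, 1.56-fold lower (1.43 to 1.71), against 34.1 and 66.1 CPM, 1.94-fold higher (1.76 to 2.14). The list also holds Krt19, an epithelial keratin, and Aldh1a2 and Rspo1 described above. Mesothelial genes were thus lower in mutant mesenchyme beside Aldh1a2 and Fgf9, whose differences were gained, and Rspo1, which was called in the mutant pair only. Their part in those was not tested.

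Endothelial and immune cells were found with the epithelium in both pairs. The 25 endothelial markers summed to 647 CPM in mutant epithelium and 157 CPM in mutant mesenchyme, and 19 of 22 measured were lower in mesenchyme, as in the control pair. Pecam1 was at 49.8 and 6.37 CPM and Cdh5, an endothelial cadherin, at 23.3 and 0.193 CPM, 121-fold lower (40.9 to 587). Sox7, Sox17, Erg and Ptprb had no read in mutant mesenchyme. Macrophage markers summed to 374 and 47.6 CPM, and 15 of 16 measured were lower, with a median of -3.82 against -2.61 in the control pair. Csf1r, the receptor of macrophage growth factor, was at 47.1 and 1.80 CPM, 26.2-fold lower (17.9 to 39.7), against 82.9 and 12 CPM, 6.90-fold lower (5.92 to 8.10). Neutrophil granule genes such as Ngp and Ltf, at 32.1 and 25.9 CPM in mutant epithelium, had no read in either mesenchymal library. Genes lower in mutant mesenchyme therefore include genes of these cells as well as of the bud epithelium.

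Neural crest and neuronal markers were divided. Of 24 listed 17 were measured, 4 were higher and 9 lower in mutant mesenchyme. Sox10, a factor of crest and glia, was at 9.92 CPM in mutant epithelium with no read in mutant mesenchyme. Gap43, a growth cone protein, lost a difference, at 114 and 123 CPM in the mutant pair, a ratio of 1.07, and at 67.1 and 249 CPM in the control pair, 3.72-fold higher (3.49 to 3.95). Nefl, a neurofilament chain, was at 50.2 and 176 CPM, 3.52-fold higher (3.24 to 3.81), against 40.4 and 73.6 CPM. Tubb3 and Stmn2, genes of neurons, were at no read and 0.322 CPM in mutant mesenchyme. The whole list summed to 517 CPM in mutant epithelium and 717 CPM in mutant mesenchyme, against 457 and 680 CPM in the control pair, and it includes Hand2, a splanchnic factor as well. The part of neural cells in the differences of Elavl4, Gap43 and Nefl was not tested.

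Immediate early genes, which respond to cell handling, were mixed. Of 29 listed 26 were measured, 1 was higher and 5 lower in mutant mesenchyme, with a median of -0.26 against -0.03 in the control pair. Their sum was 3359 CPM in mutant epithelium and 2864 CPM in mutant mesenchyme, against 3829 and 3945 CPM. Fosb and Dusp1 were lost differences, at 33.2 and 28.8 CPM and at 92.9 and 94.4 CPM in the mutant pair, against 32.2 and 75.7 CPM and 99.2 and 219 CPM. Klf4 was at 11.4 and 5.34 CPM in the mutant pair and 13.8 and 27.1 CPM in the control pair. Their part in the other lost differences was not tested.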

How the data were processed

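For each of 6 libraries the authors deposited whole-number read counts by gene symbol, not normalized. Per the submitters' processing notes the build was mm10, and Cufflinks 2.2.1 and Cuffdiff 2.2.1 are named there. No aligner, counter, annotation or strand setting is given in the sources used here. A gene and an overlapping or antisense partner may therefore share reads. The names of the deposited tables say deduplicated, and removing duplicates can flatten very abundant genes. The 5 summary lines of each table were dropped. No feature made up 4.69 to 8.84%, ambiguous 1.53 to 1.72% and not unique 13.7 to 20.1% of the counts on genes and summary lines together.

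Counts were scaled by TMM over 6 libraries (edgeR 4.0.16, R 4.3.3), with factors of 0.941 to 1.047. Ratios have exact conditional binomial (Clopper-Pearson) 95% intervals, computed in Python 3.11.15 with scipy 1.17.1. They cover counting error only, and a library with no read was set to 3 counts for a bound. Differences of log2 ratios used counts plus 0.5. With 1 library a group no test was made. Alternatives were DESeq2 1.42.0 size factors, other scalings, thinning, filters and thresholds. The calculation was tested on simulated data.

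Named genes were Pbx genes and Nkx2-5, the 15 highest and 15 lowest ratios by the interval bound nearer to 1 at 10 CPM, all turned genes, the 15 largest lost and gained differences a direction, and up to 6 members a list, with further members named after their values were seen. Unnamed models and sex-linked genes were left out. The genes and the 47 lists were chosen with earlier results of these data known. Some genes are not reported here. Positions are from GENCODE M21 for mm10.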

Additional observations from a re-analysis of the deposited data

Results flagged for a closer look

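The 19 genes called in opposite ways in the mutant and the control pair were singled out because the single library of each fraction lay on the other side in the other genotype. The difference was not tested, since there was 1 library a group. Values are the log2 ratio of mesenchyme over epithelium in the mutant pair minus that in the control pair, with 0.5 added to each count.

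Toward the mesenchyme of the mutant the values were 3.38 for Elavl4, 2.49 for Pcdh1, 2.45 for Nrp2, 2.38 for Serpinb6b and 2.12 for Bche. Toward the epithelium, Hbb-y had the largest at -11.78. It was followed by -4.84 for Zcchc5, -4.10 for Fam124a, -3.98 for Actg2, -3.79 for Slc13a4, -3.18 for Hpcal4, -3.10 for Penk and -3.07 for Slc27a6. The others were -3.01 for Zfp791, -2.85 for Adrb3, -2.72 for Nrg2, -2.46 for Shank1, -2.31 for Mrgpre and -2.29 for Pdzrn4. For genes at 5 to 10 CPM the SD of this difference over all genes was 1.34, and for those at 10 to 30 CPM it was 0.90.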

How the results depend on the processing

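No paired analysis was possible because each group has 1 library and the labels give no replicate numbers. For the same reason no library could be left out. DESeq2 size factors, plain CPM, TMM over the 4 E12.5 libraries, scaling without the 50 most abundant genes, thinning to the smallest total and leaving out markers of other cell types kept every count of called, kept, lost, gained and turned genes within 1.5 times. The counts moved with the filter and the threshold. In the order higher, lower, kept, lost, gained and turned, they were 1003, 2570, 2211, 594, 497 and 124 at a filter of 1 CPM, 373, 709, 747, 129, 73 and 2 at 20 CPM, and 1267, 3077, 2554, 680, 564 and 208 with no filter. With a 1.5-fold threshold higher, kept, lost, gained and turned genes numbered 1659, 2437, 804, 719 and 102. With a 4-fold threshold all 6 counts, in the first order, were 114, 906, 722, 65, 45 and 2. With no condition on the difference, 1012 were lost and 719 gained. The share of higher among called genes was 29.6%, 42.4% at 1.5-fold and 11.2% at 4-fold. Turned genes thus rest on low levels: 19 at 5 CPM and 2 at 20 CPM. Depth limits the deepest ratios, where 1 read decides the value.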

Other observations

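Among gene lists of cell state, those of the cell cycle and of protein folding held 1 called gene in the mutant pair. All 30 cell cycle genes were measured, with 1 higher and 0 lower in mutant mesenchyme and a median log2 ratio of 0.12, against 0.21 in the control pair. All 21 genes of protein folding in the endoplasmic reticulum were measured and 0 were called in the mutant pair, with a median of -0.18. Of 22 measured hypoxia genes 2 were higher and 4 lower, with a median of -0.31 and sums of 8079 CPM in mutant epithelium and 5751 CPM in mutant mesenchyme. Adm, adrenomedullin, met the rule for a gained difference, at 1.25 CPM in mutant epithelium and 5.85 CPM in mutant mesenchyme, 4.69-fold higher (2.84 to 8.14). In the control pair Adm was under the minimum, at 0.942 and 1.01 CPM, a ratio of 1.07 (0.509 to 2.19). That interval reaches past 2-fold, so a control difference of this size is not excluded.

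Imprinted genes, many of which act on fetal growth, leaned to the mesenchyme. Of 18 listed 16 were measured, 4 were higher and 0 lower in mutant mesenchyme, with a median of 0.55, against 3 higher and a median of 0.49 in the control pair. Plagl1, a zinc finger factor, was at 491 CPM in mutant epithelium and 1050 CPM in mutant mesenchyme, 2.15-fold higher (2.09 to 2.21), against 404 and 1490 CPM, 3.68-fold higher, in the control pair. Interferon response genes leaned to the epithelium by their median of -0.84, with 5 of 12 measured lower in mutant mesenchyme and 7 not called. In the control pair 7 of 13 were lower and the median was -1.02. Their sums lay closer together, at 721 CPM in mutant epithelium and 681 CPM in mutant mesenchyme, against 678 and 592 CPM in the control pair. Macrophage markers lay on the epithelial side, and their part in the interferon median was not tested.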
